A study of Mus musculus with 9 samples.

Results

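Cells of the iPax3 line that had been injected into mouse muscle and taken out again were compared with satellite cells of adult mice, which renew muscle fibres after injury. The comparison took every sample whose title names iPax3 re-isolated cells and every sample whose title names adult satellite cells, 6 of the 9 samples of the study, with 3 arrays in each group. The study asks how myogenic progenitors derived from pluripotent stem cells change once they have engrafted in muscle. Both groups came from the tibialis anterior, a muscle of the lower hind leg, of mice aged 3 months. The labels give the strain as NSG/NSGmdx4cv and the cell type as mononucleated cells for iPax3, and the strain as Pax7-ZsGreen and the cell type as satellite cells for the reference. The remaining 3 arrays hold re-isolated cells of the iPax7 line, from the same strain, muscle and age as the iPax3 cells, and serve here only to show where the iPax3 cells stand beside the other line. The labels describe 1500 cells, taken from 3 mice for each line over 3 experiments and sorted into lysis buffer, then amplified as cDNA before Cy3 labelling. They name neither the gate of the sorts, nor the number of clones behind the line, nor the share of host cells in the sorted fraction.

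Satellite cells lie between the muscle fibre and its basement membrane, rest in quiescence and carry the transcription factor Pax7, and on injury they divide, switch on Myod1 and Myog and fuse into fibres. Their state is held by signals from the fibre and its surroundings, among them Notch, BMP, Wnt and activin-type ligands, each kept in check by secreted antagonists. The matrix around fibres (collagens, proteoglycans, laminins and matricellular proteins) is made largely by Pdgfra-positive fibro-adipogenic progenitors and fibroblasts, with a contribution from the myogenic cells themselves.

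Each array read 41174 probes on the whole mouse genome, and levels are given as log2 of the processed signal minus log2 of the 75th percentile on the same array. Between 69.1% and 77.3% of the probes were well above background on the iPax3 arrays and between 56.7% and 79.7% on the satellite arrays. Satellite replicate 1 stood apart from the other satellite arrays: across genes it correlated with the iPax3 arrays at r between 0.67 and 0.72, whereas satellite replicates 2 and 3 did so at r between 0.54 and 0.61. The satellite arrays correlated with each other at r between 0.62 and 0.67, and the iPax3 arrays at r between 0.71 and 0.74. Satellite replicate 1 was therefore at least as close to each iPax3 array as to the other satellite arrays. It had 79.7% of its probes well above background, against 56.7% and 60.4% on satellite replicates 2 and 3. The iPax3 arrays shared a slide and a scan day, and the satellite arrays lay on 3 other slides scanned on 2 other days, so strain, slide and scan day cannot be told apart from the group. The labels do not say whether replicates of a group came from separate animals, so a p-value here measures only how far these arrays spread, which may be technical.

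In all, 98 of 22700 genes (0.432%) were called at a Benjamini-Hochberg adjusted p of 0.05 in limma. Of these, 82 (0.361%) were higher and 16 (0.0705%) lower in iPax3 cells. The rises ran from 3.71 to 10.29 log2 units and the falls from −3.93 to −9.62, around a median of −0.19 over all genes. In each of the 98 genes the iPax3 readings lay wholly on the other side of the satellite readings, which was also true, upwards, of 1952 tested genes (8.6%) and, downwards, of 2363 (10.4%). For 25 of the rises no satellite array was well above background, so those folds are lower bounds, measured against the dimmest signal that counts as above background. For 27 rises the probe was above background on all 3 satellite arrays, and 9 of the falls had no iPax3 array above background. At an unadjusted p under 0.05, before any adjustment, 2824 of the tested genes (12.4%) would pass, the share against which such counts in the lists are to be read. Of the 98 calls, 18 held in all 9 fits with an array left out, and 16 held in 0 or 1. Each of these fits again kept only probes above background on at least 3 arrays. A probe above background on exactly 3 dropped out where 1 of those was left out. Its call could then hold only through another probe of the gene, so these counts depend partly on the filter. The count rests on few arrays. It was 25, 27 and 19 without iPax3 replicate 1, 2 or 3, 57 without iPax7 replicate 3, 28 and 35 without satellite replicate 2 or 3, and 455 without satellite replicate 1 (335 higher and 120 lower, with 89 of the 98 among them). With the slide as a random block 14 genes were called, with the scan day 27 and with the 6 arrays alone 56. The share of called genes that were higher was 83.7%, and 71.2% when arrays were scaled to their median (59 called), where the median over all genes was −0.59. It was 67.9% after normexp background correction (112 called) and 70.9% with probes above background on all 9 arrays (79 called). The lists' medians are to be read against the median of all genes.

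**Figure D1:**
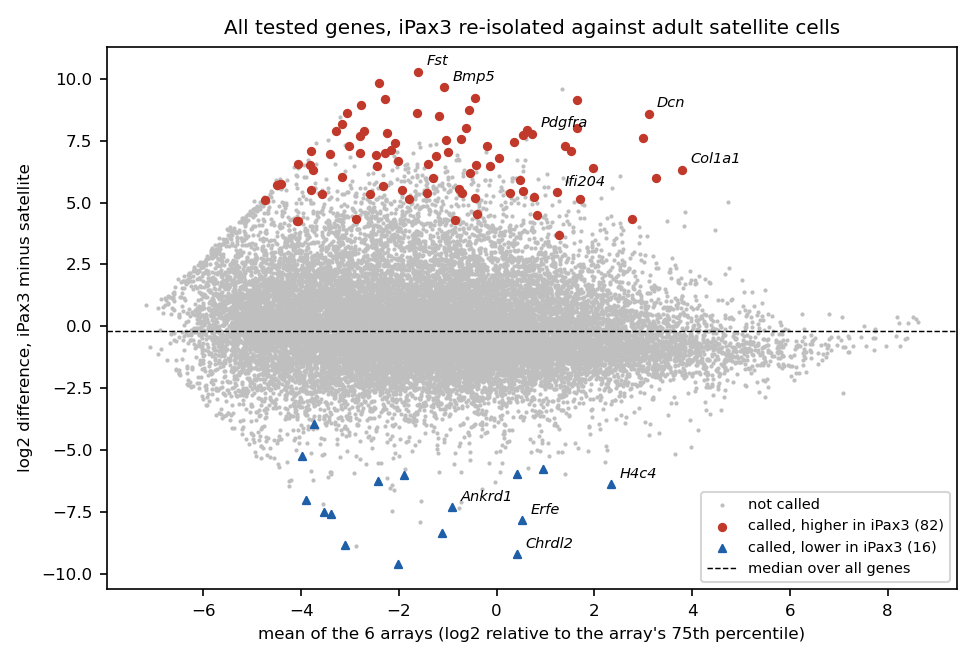
Log2 difference of iPax3 minus satellite cells against the mean log2 level of the 6 arrays (relative to the 75th percentile of each array), 1 point per tested gene; red points mark the 82 called genes that were higher, blue triangles the 16 that were lower, and the dashed line the median of −0.19. The called rises lie between 3.71 and 10.29 and the called falls between −9.62 and −3.93.

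Genes of the extracellular matrix held 13 of the called rises in 5 of the fixed lists, and the probes of 3 of them are shown because each measures coding sequence of a protein that the results turn on. The probe of Dcn covers the end of its coding region (mm8, chr10:96947287-96947346, plus strand), where capitals mark the stop codon. The probes of Col1a1 (chr11:94766828-94766887, plus strand) and Lama4 (chr10:38795404-38795463, plus strand) hold a reading frame free of stop codons over their whole length.
Dcn: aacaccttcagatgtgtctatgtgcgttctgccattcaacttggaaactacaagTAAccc
Col1a1: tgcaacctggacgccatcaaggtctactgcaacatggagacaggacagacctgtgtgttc
Lama4: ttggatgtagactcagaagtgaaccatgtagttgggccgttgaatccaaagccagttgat

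Of 15 small leucine-rich proteoglycan genes tested, which encode proteins that bind and space collagen fibrils, 3 rose, 0 fell and 12 had a higher mean in iPax3 cells (1 to 4 called with an array left out). Their median difference was 2.44, against −0.19 over all genes. Dcn, which encodes decorin, read 7.58, 6.76 and 7.87 on the iPax3 arrays and −0.17, −1.71 and −1.7 on the satellite arrays. Its rise was 8.59 ± 0.75 log2 units (adjusted p = 0.00255), and it was called whichever array was left out and under all 12 other alternatives. The second Dcn probe differed by 4.2. Aspn, the gene of asporin, read 2.9, 0.8 and 3.21 on the iPax3 arrays and −8.84, −5.18 and −6.64 on the satellite arrays, a rise of at least 179-fold (adjusted p = 0.0104). Podn, the gene of podocan, read 4.63, 4.14 and 6.34 on the iPax3 arrays and −1.67, −3.11 and −1.91 on the satellite arrays and rose by 7.27 ± 0.88 log2 units (adjusted p = 0.0122). In all 3 genes the lowest iPax3 array lay above the highest satellite array, and in Aspn iPax3 replicate 2 was the low array. The nearest members that did not pass were Omd, Ecm2 and Lum, known as osteomodulin, extracellular matrix protein 2 and lumican. Omd read 0.17, −0.42 and 0.18 on the iPax3 arrays and −8.06, −6.45 and −5.21 on the satellite arrays (adjusted p = 0.0525). Ecm2 read 1.22, 0.12 and 2.23 on the iPax3 arrays and −3, −6.23 and −6.56 on the satellite arrays (adjusted p = 0.0559). Lum differed by 5.52 ± 1.04 log2 units (adjusted p = 0.0683), above background on 2 satellite arrays. Omd was above background on no satellite array and Ecm2 on 1, and in both the groups lay apart.

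Both chains of type I collagen, the main fibrillar collagen of connective tissue, rose, the only calls among 11 fibrillar collagen genes (0 to 4 with an array left out), whose median difference was 1.51. Col1a1 read 6.93, 6.63 and 7.34 on the iPax3 arrays and 1.86, 0.3 and −0.23 on the satellite arrays and rose by 6.33 ± 0.75 log2 units (adjusted p = 0.0111). Its other probes differed by 7.79 and 8.54. Col1a2 read 6.27, 5.74 and 6.8 on the iPax3 arrays and −0.63, 0.11 and 1.32 on the satellite arrays and rose by 6 ± 0.74 log2 units (adjusted p = 0.0126). Both were above background on all satellite arrays, and the groups lay apart. Col2a1, a collagen of cartilage, read 5.69, 5.37 and 5.76 on the iPax3 arrays and 2.55, 1.36 and 0.16 on the satellite arrays (adjusted p = 0.059). Col3a1, the partner of type I collagen in soft tissue, read 7.34, 6.89 and 7.53 on the iPax3 arrays and 4.02, 3.01 and −0.39 on the satellite arrays (adjusted p = 0.0985). Neither passed, although the groups did not overlap in either gene, and in Col3a1 satellite replicate 3 was far below the other satellite arrays.

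Among 21 other collagen genes tested, 2 rose and 0 fell (1 to 5 called with an array left out), with a median of 0.9. Col14a1, a collagen that sits on the surface of fibrils, read 2.93, 2.87 and 3.38 on the iPax3 arrays and −6.48, −5.37 and −4.43 on the satellite arrays and rose by 8.49 ± 0.73 log2 units (adjusted p = 0.00255; above background on 2 satellite arrays). Col8a1, a network-forming short-chain collagen, read 3.81, 2.22 and 4.24 on the iPax3 arrays and −2.72, −2.85 and −1.85 on the satellite arrays and rose by 5.9 ± 0.87 log2 units (adjusted p = 0.0288). The call of Col14a1 held in 9 of 9 fits with an array left out, that of Col8a1 in 3. Of the type VI chains, which form beaded filaments near cells, Col6a3 differed by 3.88 ± 0.68 (adjusted p = 0.0559) and Col6a2 by 4.06 ± 0.77 (adjusted p = 0.0683), both without passing.

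Basement membrane genes had a median of 1.24 over 20 tested, of which 2 rose and 0 fell (1 to 4 called with an array left out). Lama4, which encodes the laminin alpha 4 chain, read 4.44, 3.44 and 5.35 on the iPax3 arrays and −3.34, −3.21 and −3.35 on the satellite arrays and rose by 7.71 ± 0.82 log2 units (adjusted p = 0.00628), and its other 3 probes differed by between 3.08 and 9.88. Col15a1, a collagen of the basement membrane zone, read 4.43, 3.74 and 4.65 on the iPax3 arrays and −0.29, −1.53 and −0.78 on the satellite arrays and rose by 5.14 ± 0.67 log2 units (adjusted p = 0.0167). The satellite arrays lay close together in Lama4, and in both genes all 3 were below every iPax3 array. Lamb1 and Nid1, which encode the laminin beta 1 chain and nidogen, did not pass. Lamb1 read 4.36, 3.44 and 4.55 on the iPax3 arrays and 0.26, −1.72 and −4.65 on the satellite arrays (adjusted p = 0.0652). Nid1 read 1.45, 0.83 and 0.66 on the iPax3 arrays and −1.54, −6.3 and −6.81 on the satellite arrays (adjusted p = 0.101). In both satellite replicate 1 was the highest of its group, still below every iPax3 array.

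Matricellular and adhesive glycoprotein genes, whose products signal from the matrix to cells, had 4 rises and 0 falls among 30 tested (2 to 6 called with an array left out) and a median of 2.38. Postn, the gene of periostin, read 4.41, 3.06 and 4.76 on the iPax3 arrays and −4.01, −3.06 and −3.07 on the satellite arrays and rose by 7.46 ± 0.75 log2 units (adjusted p = 0.00566). Cilp, first known from cartilage, read 3.28, 2.76 and 4.27 on the iPax3 arrays and −3.07, −3.87 and −4.57 on the satellite arrays and rose by 7.28 ± 0.75 log2 units (adjusted p = 0.00566; above background on 2 satellite arrays). Both were called whichever array was left out, and in both the groups lay far apart. Tnc, the gene of tenascin C, a protein of developing and injured tissue, read 4.38, 2.07 and 3.72 on the iPax3 arrays and −1.04, −2.09 and −2.4 on the satellite arrays and rose by 5.23 ± 0.79 log2 units (adjusted p = 0.0324). Ccn3 of the CCN family read 0.25, −1.92 and −0.14 on the iPax3 arrays and −8.93, −6.22 and −5.59 on the satellite arrays, a rise of at least 23.8-fold (adjusted p = 0.0458). Their calls held in 2 and 1 of those fits. Outside the list, Edil3, which encodes an integrin-binding secreted protein, rose by 4.33 ± 0.62 log2 units (adjusted p = 0.0265; above background on 1 satellite array). Thbs1, the gene of thrombospondin 1, read 4.79, 4.1 and 4.43 on the iPax3 arrays and 1.13, 0.4 and −1.31 on the satellite arrays without passing (adjusted p = 0.0637).

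Elastic fibre genes were higher by mean without passing singly. Of 18 tested, 17 had a higher mean in iPax3 cells, against 45.3% of all genes tested, and the median was 2.63. None passed in limma (0 or 1 with an array left out), and 8 had an unadjusted p under 0.05 (12.4% of all genes). Fbn1, the gene of the microfibril protein fibrillin 1, read 4.35, 3.39 and 4.99 on the iPax3 arrays and −0.08, 0.51 and −2.41 on the satellite arrays (adjusted p = 0.0713). Mfap4, a microfibril-associated gene, read 4.71, 3.77 and 5.78 on the iPax3 arrays and −0.15, 1.66 and 1.82 on the satellite arrays (adjusted p = 0.124). Efemp1, the gene of a fibulin, read −1.74, −0.92 and 1.91 on the iPax3 arrays and −5.25, −5.96 and −3.91 on the satellite arrays (adjusted p = 0.116), its iPax3 arrays spread more widely than its satellite arrays. In all 3 genes the lowest iPax3 array lay above the highest satellite array.

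Some genes of enzymes that cut or restrain the matrix were called. Among 41 protease and inhibitor genes tested 6 rose and 0 fell (2 to 6 called with an array left out), with a median of 0.99. Mmp14, which encodes a membrane-bound collagenase, read 5.8, 5.06 and 6.07 on the iPax3 arrays and 0.31, −4.16 and −3.28 on the satellite arrays and rose by 8.02 ± 1.12 log2 units (adjusted p = 0.0227; above background on 2 satellite arrays). Mmp16, of the same membrane-bound type, read 1.27, 0.15 and 2.28 on the iPax3 arrays and −9, −6.32 and −6.82 on the satellite arrays, a rise of at least 85.2-fold (adjusted p = 0.0342). Mmp19 read −0.39, 0.73 and 1.19 on the iPax3 arrays and −4.43, −6.4 and −4.62 on the satellite arrays and rose by 5.65 ± 0.84 log2 units (adjusted p = 0.0299; above background on 2 satellite arrays). Satellite replicate 1 was the brightest satellite array for Mmp14 and the dimmest for Mmp16, and none of the groups overlapped. Adamts12, a secreted metalloprotease gene, read 2.56, 2.89 and 3.83 on the iPax3 arrays and −3.04, −3.73 and −3.37 on the satellite arrays and rose by 6.47 ± 0.67 log2 units (adjusted p = 0.00566). Adamtsl3, which encodes a relative without a protease domain, read 3.03, 2.48 and 2.57 on the iPax3 arrays and −5.5, −6.29 and −6.03 on the satellite arrays and rose by 8.63 ± 0.69 log2 units (adjusted p = 0.00203; above background on 1 satellite array), while its second probe differed by 1.86. Serpinf1, the gene of a secreted serpin, read 5.19, 4.2 and 5.38 on the iPax3 arrays and 1.01, 1.16 and −0.41 on the satellite arrays and rose by 4.34 ± 0.73 log2 units (adjusted p = 0.0465). Adamts12 and Adamtsl3 were called in 9 of 9 fits with an array left out, Mmp14 in 4 and Serpinf1 in 1. Outside the list, Prss23, a serine protease gene, read −0.45, −1.2 and −0.73 on the iPax3 arrays and −8.99, −6.24 and −6.82 on the satellite arrays, a rise of at least 20.9-fold (adjusted p = 0.0252), and its second probe differed by 1.52. Serpina3j, of a serpin cluster with close copies that the probe may not separate, rose by 6.54 ± 0.85 log2 units (adjusted p = 0.0161; above background on 2 satellite arrays). Reck, which encodes a membrane-anchored protease inhibitor, read 0.16, −2.27 and 2.06 on the iPax3 arrays and −6.12, −5.3 and −6.25 on the satellite arrays without passing (adjusted p = 0.0568).

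Secreted regulators of the activin, BMP and Wnt pathways moved in both directions. The probes of Fst, Bmp5 and Chrdl2 each cover more of the genome than their 60 bases, as a probe across an exon junction does: Fst spans chr13:115575362-115576034 (minus strand), Bmp5 chr9:75614068-75625461 (plus strand) and Chrdl2 chr7:99903427-99907778 (plus strand), all on mm8. They are shown because Fst had the smallest adjusted p of all genes, Bmp5 is the BMP ligand that rose, and Chrdl2 is the called antagonist that fell.
Fst: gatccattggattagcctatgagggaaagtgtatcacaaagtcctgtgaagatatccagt
Bmp5: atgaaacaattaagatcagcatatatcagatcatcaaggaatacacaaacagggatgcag
Chrdl2: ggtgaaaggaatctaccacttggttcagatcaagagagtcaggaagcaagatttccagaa

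Fst encodes follistatin, which binds activins and myostatin and keeps them from their receptors. It read 3.69, 3.34 and 3.55 on the iPax3 arrays and −7.32, −6.22 and −6.73 on the satellite arrays, a rise of at least 418-fold (adjusted p = 0.00131). Fstl1, a secreted glycoprotein gene of the same family, read 2.75, 1.89 and 3.86 on the iPax3 arrays and −1.2, −5.13 and −4.73 on the satellite arrays and rose by 6.51 ± 1.08 log2 units (adjusted p = 0.0458; above background on 1 satellite array). In Fst no satellite array was above background and the iPax3 arrays lay close together, and in Fstl1 satellite replicate 1 was the highest of its group. Fst was called in 9 of 9 fits with an array left out and Fstl1 in 1. The other 13 tested genes of the activin and follistatin axis did not pass. Over the whole list, Fst and Fstl1 included, the median was −0.15, and 1 or 2 genes were called with an array left out. The nearest was Inha, an inhibin subunit gene, at −0.26, 0.41 and −0.19 on the iPax3 arrays and 1, 2.29 and 2.53 on the satellite arrays (adjusted p = 0.3).

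In the BMP family a ligand rose and an antagonist fell among 27 tested genes, whose median was −0.99. Bmp5, the ligand gene, read 3.69, 3.57 and 3.97 on the iPax3 arrays and −5.1, −6.23 and −6.41 on the satellite arrays and rose by 9.65 ± 0.76 log2 units (adjusted p = 0.00203; above background on 1 satellite array). A second probe of Bmp5 differed by 2.69. Chrdl2, which encodes a chordin-like BMP antagonist known from quiescent satellite cells, read −3.95, −3.43 and −5.19 on the iPax3 arrays and 4.54, 5.07 and 5.44 on the satellite arrays and fell by 9.2 ± 0.69 log2 units (adjusted p = 0.00203). The groups lay far apart in both genes, and both calls held in 9 of 9 fits with an array left out. Bmp6 and Gdf5, further ligand genes, and Bmper, a secreted BMP-binding protein gene, did not pass. Bmp6 read 0.04, 1.18 and −0.21 on the iPax3 arrays and 3.19, 4.83 and 4.38 on the satellite arrays (adjusted p = 0.0758). Gdf5 read −0.61, −0.86 and −0.79 on the iPax3 arrays and 1.69, 3.53 and 4.25 on the satellite arrays (adjusted p = 0.0792). Bmper read −0.08, 0.25 and 1.56 on the iPax3 arrays and −8.78, −5.09 and −6.45 on the satellite arrays (adjusted p = 0.0761), with no satellite array above background. Bmp6 and Gdf5 were lower, and Bmper higher, on every iPax3 array than on any satellite array.

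Of 16 secreted Wnt modulator genes tested, 2 rose and 0 fell (1 to 3 called with an array left out), with a median of 1.79. Dkk2, of the Dickkopf family, read 2.67, 1.56 and 3.3 on the iPax3 arrays and −8.88, −6.22 and −6.84 on the satellite arrays, a rise of at least 207-fold (adjusted p = 0.0026). Sfrp1, a secreted decoy of the Frizzled receptors, read 3.94, 3.81 and 4.81 on the iPax3 arrays and −2.11, −6.24 and −6.82 on the satellite arrays and rose by 9.24 ± 1.19 log2 units (adjusted p = 0.0158; above background on 1 satellite array). The call of Dkk2 held in 9 and that of Sfrp1 in 4 of 9 fits with an array left out, and satellite replicate 1 read highest for Sfrp1. Sfrp2 read 1.49, −1.94 and 1.73 on the iPax3 arrays and −7.52, −6.24 and −5.51 on the satellite arrays (adjusted p = 0.0795). Rspo3, an R-spondin gene that strengthens Wnt signals, read 0.89, −0.12 and 0.15 on the iPax3 arrays and −8.88, −6.11 and −6.61 on the satellite arrays (adjusted p = 0.0847). No satellite array was above background for these 2 genes, and neither passed. Among 38 Wnt ligands, receptors and effectors 0 passed in limma and 8 had an unadjusted p under 0.05, with a median of 0.11. Fzd2, a receptor gene, differed by 3.45 ± 0.93 log2 units (adjusted p = 0.177).

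Pdgfra, the receptor of platelet-derived growth factor that marks fibro-adipogenic progenitors, was the only call among 23 genes of the PDGF, HGF, VEGF and angiopoietin axis. Its probe lies on mm8 at chr5:75445285-75445344 (plus strand) with a reading frame free of stop codons, and a second probe differed by 8.25.
Pdgfra: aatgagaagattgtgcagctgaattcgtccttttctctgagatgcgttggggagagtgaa

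Pdgfra read 4.67, 4.79 and 4.4 on the iPax3 arrays and −4.36, −2.91 and −2.24 on the satellite arrays and rose by 7.79 ± 0.79 log2 units (adjusted p = 0.00566). The iPax3 arrays lay within a narrow range, and the call held in 9 of 9 fits with an array left out and under all 12 other alternatives. Among surface and adhesion genes, Itga11, a collagen-binding integrin subunit, read 1.32, 0.82 and 2.79 on the iPax3 arrays and −6.44, −6.26 and −4.65 on the satellite arrays, a rise of at least 105-fold (adjusted p = 0.00646), the only call among 28 integrin and cadherin genes. Gpc3, a glypican that holds growth factors at the cell surface, read 3.25, 1.38 and 3.52 on the iPax3 arrays and −2.5, −6.23 and −5.69 on the satellite arrays and rose by 7.52 ± 1.12 log2 units (adjusted p = 0.0299; above background on 1 satellite array), the only call among 20 glypicans and syndecans. Icam1, an adhesion receptor for leukocytes, read 4.05, 3.5 and 3.84 on the iPax3 arrays and −2.2, −6.22 and −6.37 on the satellite arrays and rose by 8.73 ± 1.28 log2 units (adjusted p = 0.0288; above background on 1 satellite array), the only call among 22 immunoglobulin adhesion molecules. The second Icam1 probe differed by 0.54, and the calls of Gpc3 and Icam1 held in 2 and 3 of 9 fits with an array left out. Cdh15, the gene of M-cadherin of satellite cells and myoblasts, read −1.21, 1.17 and −2.36 on the iPax3 arrays and 2.32, 2.97 and 4.72 on the satellite arrays without passing (adjusted p = 0.163). Itga7, an integrin used to sort satellite cells, read 4.65, 4.89 and 4.47 on the iPax3 arrays and 4.86, 6.19 and 6.32 on the satellite arrays (adjusted p = 0.513), with the groups overlapping narrowly.

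Other secreted factors rose outside the fixed lists. Angptl1, an angiopoietin-like gene, read 5.08, 4.59 and 5.83 on the iPax3 arrays and −1.86, 1.15 and −2.97 on the satellite arrays and rose by 6.39 ± 1.07 log2 units (adjusted p = 0.0465), with satellite replicate 2 well above the other satellite arrays. A second probe of Angptl1 differed by −0.41. Penk, the precursor of enkephalin peptides, read 3.6, 1.7 and 4.54 on the iPax3 arrays and −2.55, −2.83 and −1.19 on the satellite arrays and rose by 5.47 ± 0.91 log2 units (adjusted p = 0.0464). Kazald1, which encodes a secreted protein with a Kazal domain, read 2.32, 3.54 and 4.5 on the iPax3 arrays and −3.85, −3.17 and −3.03 on the satellite arrays and rose by 6.8 ± 1.14 log2 units (adjusted p = 0.0465). Each of these calls was lost in most fits with an array left out, holding in 1, 1 and 2 of 9. Prl2c5, of a prolactin family with close copies that the probe may not separate, rose by 5.49 ± 0.89 log2 units (adjusted p = 0.0431; above background on 2 satellite arrays).

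**Figure D2:**
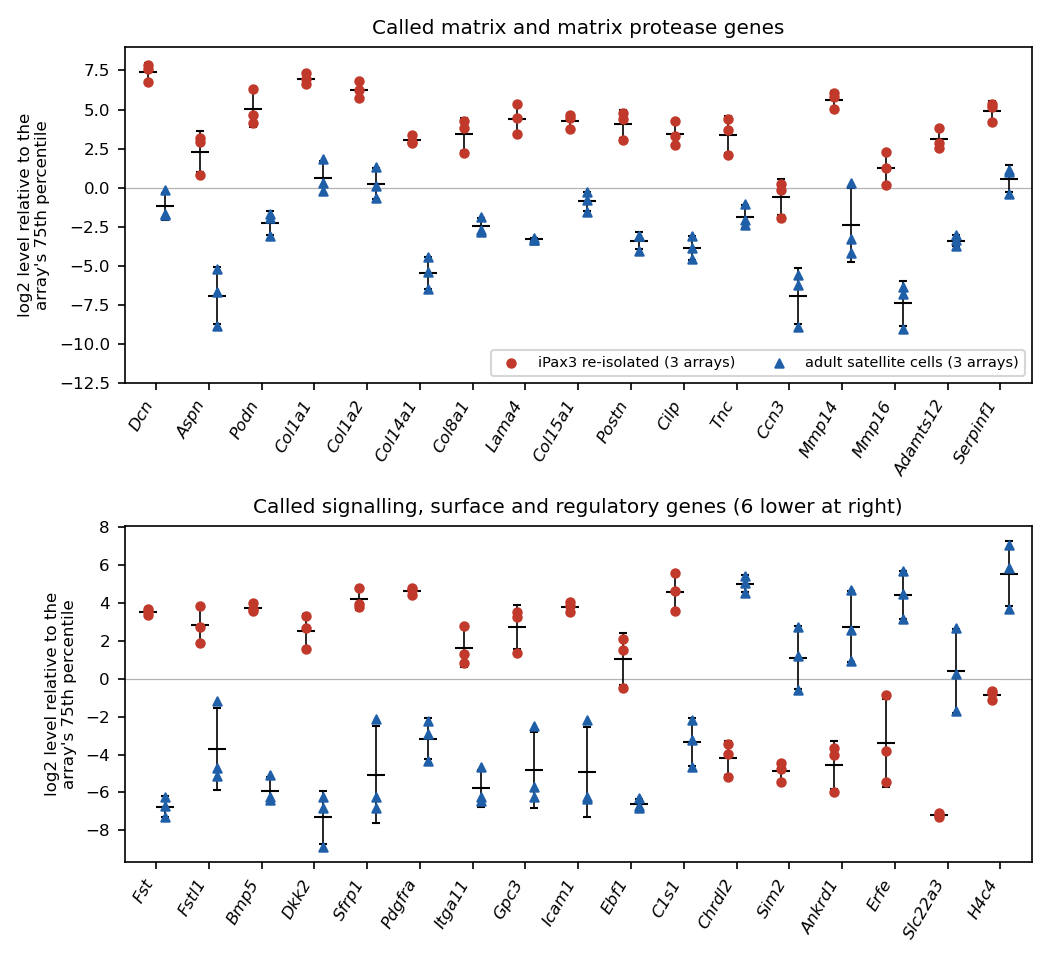
Log2 level on each array (relative to its 75th percentile) of 34 called genes, with iPax3 arrays as red circles, satellite arrays as blue triangles and the mean and SD of each group of 3 in black. In every gene shown the groups are apart; the 6 genes at the right of the lower panel are lower in iPax3 cells, Chrdl2 at −5.19 to −3.43 against 4.54 to 5.44.

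Markers of fibro-adipogenic progenitors and fibroblasts, a list that shares genes with the matrix lists, were higher in iPax3 cells. Of 28 markers, all tested, 6 rose (Pdgfra, Dcn, Col1a1, Col1a2, Serpinf1 and Ebf1), 0 fell and 23 had a higher mean. With an array left out, 3 to 7 were called. Their median difference was 3.5, and their median level was 2.77, 2.33 and 3.45 on the iPax3 arrays against −0.4, −0.49 and −0.3 on the satellite arrays. The log2 of their summed level ran from 9.1 to 10.08 on the iPax3 arrays and from 6.7 to 7.79 on the satellite arrays. Twist1 and Ebf1 were above background on no satellite array and every marker was above background on at least 1 iPax3 array. Their part in the rise of the matrix genes was not tested. In sorted samples such as these, fewer cells of a type and less RNA per cell cannot be told apart.

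Not every fibroblast marker followed. Of the 28 markers, 5 had a lower mean in iPax3 cells, the lowest at −1.54. All iPax3 arrays were below all satellite arrays in 2 markers and above them in 15, against 10.4% and 8.6% of all genes tested. Dpt, the gene of dermatopontin, was high in both groups, at 5.66, 4.52 and 5.99 on the iPax3 arrays and 4.94, 3.85 and 6.3 on the satellite arrays, and differed by 0.36 ± 0.83 (adjusted p = 0.874). Ly6a, which encodes Sca-1, read 2.98, 2.19 and 3.31 on the iPax3 arrays and −1.86, −0.6 and 0.16 on the satellite arrays (adjusted p = 0.0872). Cd55, which encodes an inhibitor of complement, read 1.61, 0.3 and 1.11 on the iPax3 arrays and −2.26, −2.21 and −4.83 on the satellite arrays (adjusted p = 0.0962). Neither passed, although in both the groups lay apart. Ebf1, a transcription factor gene of mesenchymal and B cells, read 1.54, 2.11 and −0.51 on the iPax3 arrays and −6.74, −6.29 and −6.84 on the satellite arrays, a rise of at least 74.8-fold (adjusted p = 0.00566) that held in 9 of 9 fits with an array left out. Ldb2, which encodes a cofactor of LIM-domain transcription factors, rose by 6.69 ± 0.83 log2 units (adjusted p = 0.0135; above background on 1 satellite array).

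Markers of the 8 other cell types listed did not pass in limma, and 0, 1 or 2 of a list were called with an array left out. Of 16 tendon, cartilage and bone lineage genes 0 were called and 4 had an unadjusted p under 0.05, with a median of 0.65. Tnmd, the tendon gene of tenomodulin, read −0.44, −0.34 and −3.11 on the iPax3 arrays and −7.27, −6.24 and −5.34 on the satellite arrays (adjusted p = 0.101). Endothelial markers had 19 of 21 lower means, 5 unadjusted p-values under 0.05 and a median of −1.42, with a log2 summed level from 4.52 to 5.26 on the iPax3 arrays and from 5.63 to 6.56 on the satellite arrays. Cdh5 and Tek, defining endothelial genes, were above background on no iPax3 array. Pecam1 read 0.97, −0.83 and 1.77 on the iPax3 arrays and 1.63, −0.23 and 0.74 on the satellite arrays (adjusted p = 0.988). Lyve1, a lymphatic gene, read −7.53, −3.85 and −6.96 on the iPax3 arrays and 0.1, −2.02 and −0.99 on the satellite arrays (adjusted p = 0.14). Pecam1 levels overlapped between the groups, and those of Lyve1 did not.

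Leukocyte markers had 1 unadjusted p under 0.05 and a median of −0.3 over 24 tested, and the pan-leukocyte gene Ptprc read −3.66, −3.9 and −3.42 on the iPax3 arrays and −5.36, −2.26 and −3.76 on the satellite arrays (adjusted p = 0.976). Pericyte and smooth muscle markers had 5 unadjusted p-values under 0.05 and a median of −0.97 over 16 tested. Among them Steap4, a metalloreductase gene, read 1.36, 0.47 and 0.03 on the iPax3 arrays and −3.13, −3.51 and −4.81 on the satellite arrays (adjusted p = 0.0562). Myh11, smooth muscle myosin, read −0.7, −0.23 and −0.84 on the iPax3 arrays and 2.49, 2.67 and 3.26 on the satellite arrays (adjusted p = 0.0717). These 2 genes lay apart in opposite directions. Schwann cell and neuron markers had a median of −1.33 over 18 tested, adipocyte genes −0.49 over 18 and erythroid markers −0.66 over 8, with 2, 3 and 0 unadjusted p-values under 0.05. Pluripotency genes had a median of −0.37 over 14 tested with 1 such p, and Pou5f1, which encodes Oct4, read −3.2, −2.39 and −2.42 on the iPax3 arrays and −3.17, −0.66 and −0.54 on the satellite arrays (adjusted p = 0.557), overlapping between the groups.

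**Figure D3:**
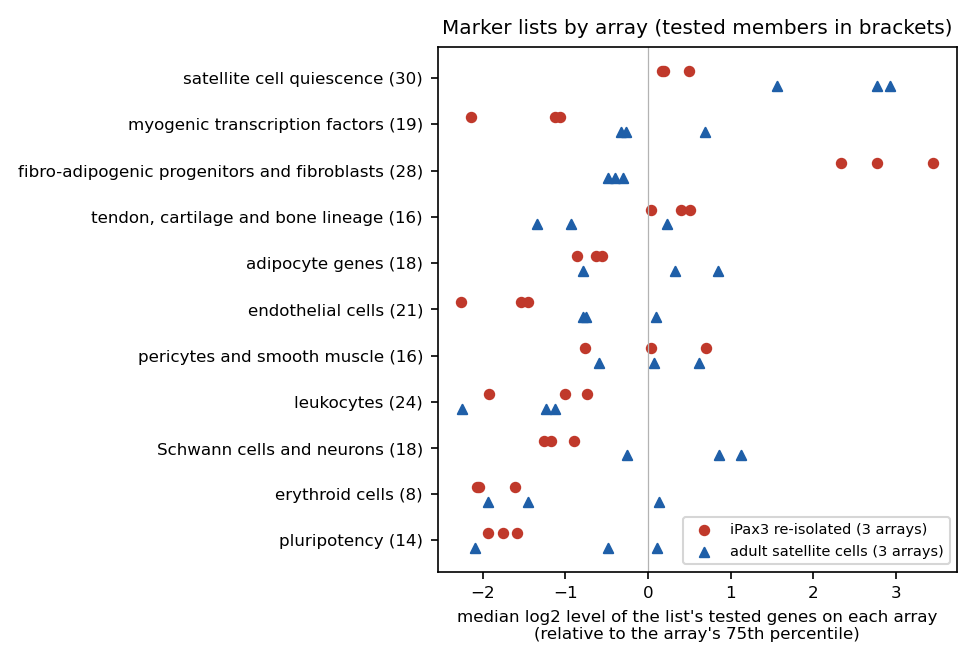
Median log2 level of each marker list on each array (relative to the 75th percentile), with iPax3 arrays as red circles and satellite arrays as blue triangles; the number of tested genes is in brackets. Fibro-adipogenic markers lie between 2.33 and 3.45 on the iPax3 arrays and below 0 on the satellite arrays, and quiescence markers between 0.17 and 0.49 against 1.56 to 2.93.

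Genes of the satellite cell itself were lower by median. Of 31 quiescence markers 30 were tested, of which Chrdl2 fell, 0 rose and 22 had a lower mean, with a median of −2.18. With an array left out 1 to 3 were called. Their median level was 0.19, 0.49 and 0.17 on the iPax3 arrays and 2.77, 2.93 and 1.56 on the satellite arrays, and the log2 summed level ran from 6.55 to 6.94 against 8.15 to 8.52. In 14 of the 30 all iPax3 arrays were below all satellite arrays, and in 3 above, against 10.4% and 8.6% of all genes tested. Des, the gene of the muscle intermediate filament desmin, read −1.28, −1.05 and −1.26 on the iPax3 arrays and 3.27, 2.6 and 3.2 on the satellite arrays (adjusted p = 0.0601). Fgfr4, an FGF receptor of myogenic cells, read 1.71, 1.7 and 1.71 on the iPax3 arrays and 4.48, 4.46 and 5.04 on the satellite arrays (adjusted p = 0.115). Neither passed, and both had tight groups that did not overlap. Calcr, the calcitonin receptor of quiescent satellite cells, read −3.42, −3.1 and −3.69 on the iPax3 arrays and 3.57, −3.06 and 4.58 on the satellite arrays (adjusted p = 0.309), with satellite replicate 2 at the level of the iPax3 arrays. Cd34, a surface marker shared with fibroblasts and endothelium, read 1.15, 0.79 and 2.35 on the iPax3 arrays and 0.38, −4.42 and −4.36 on the satellite arrays (adjusted p = 0.25), satellite replicate 1 standing above the other satellite arrays.

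The myogenic transcription factors had a median of −1.34 over 19 tested of 24, with Sim2 lower, 0 higher and 18 not passing. Pax7, the defining factor of the satellite cell, read −3.15, −0.53 and −3.52 on the iPax3 arrays and 2.89, 3.53 and −0.66 on the satellite arrays (adjusted p = 0.195), with satellite replicate 3 within the range of iPax3. Pax3, from which the injected line takes its name, read −4.36, −4.98 and −3.98 on the iPax3 arrays and −4.45, −4.29 and −0.64 on the satellite arrays (adjusted p = 0.632), above background on 2 arrays of each group. Whether its probe sees a transgene was not tested. Myod1 read 3.1, 3.22 and 2.71 on the iPax3 arrays and 4.21, 4.88 and 5.54 on the satellite arrays (adjusted p = 0.308), lower on every iPax3 array than on any satellite array. Myog, which drives differentiation, read −1.43, −1.28 and −2.67 on the iPax3 arrays and −3.97, −3.32 and 3.5 on the satellite arrays (adjusted p = 0.916), satellite replicate 3 standing far above the others. Without that array the Myog difference was 1.85, and did not pass. The probe of Myf5 was above background on too few arrays to be tested. Meox2, a homeobox gene of limb muscle, read 2.29, 2.17 and 3.32 on the iPax3 arrays and −0.46, −6.26 and −5.64 on the satellite arrays (adjusted p = 0.0926), above background on 1 satellite array. Pitx3, a homeobox gene, differed by −3.06 ± 0.79 log2 units (adjusted p = 0.161), and Myf6, a late myogenic factor gene, by −2.55 ± 0.69 (adjusted p = 0.18).

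Among muscle genes, 1 call each fell in the differentiation and developmental sarcomere lists. Ankrd1, which encodes a muscle ankyrin repeat protein of stretched and developing muscle, read −3.67, −4.02 and −5.98 on the iPax3 arrays and 2.56, 0.95 and 4.7 on the satellite arrays and fell by 7.3 ± 1.13 log2 units (adjusted p = 0.0351; above background on 2 iPax3 arrays). Erfe, the gene of erythroferrone, also called myonectin, read −3.84, −0.87 and −5.45 on the iPax3 arrays and 4.48, 3.14 and 5.68 on the satellite arrays and fell by 7.82 ± 1.26 log2 units (adjusted p = 0.0423; above background on 2 iPax3 arrays). Sim2, the transcription factor gene called among the myogenic factors, read −4.46, −4.74 and −5.46 on the iPax3 arrays and −0.62, 1.22 and 2.72 on the satellite arrays and fell by 5.99 ± 0.9 log2 units (adjusted p = 0.0305; above background on 2 iPax3 arrays). None of these 3 genes overlapped between the groups, and each of the 3 calls held in 2 of 9 fits with an array left out. Of the 17 developmental sarcomere genes 16 had a lower mean, and their median was −1.07. Csrp3, a muscle LIM protein gene, read −2.36, −1.34 and −3.61 on the iPax3 arrays and 0.06, 3.32 and 4.36 on the satellite arrays (adjusted p = 0.115). Adult fibre sarcomere genes had a median of −0.16 over 29 tested, near that of all genes, with 0 called in limma and 0 unadjusted p-values under 0.05. Dystrophin complex genes had a median of −0.49 over 22 tested, with 0 called and 4 unadjusted p-values under 0.05.

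Of the remaining 12 falls, H4c4 alone belonged to a fixed list, that of histone genes. Slc22a3, an organic cation transporter gene, read −7.17, −7.08 and −7.29 on the iPax3 arrays and 0.26, 2.69 and −1.71 on the satellite arrays, a fall of at least 49.2-fold (adjusted p = 0.021). Hmgxb3, which encodes an HMG box protein, read −5.07, −5.4 and −5.39 on the iPax3 arrays and 0.1, 3.71 and 5.31 on the satellite arrays, a fall of at least 291-fold (adjusted p = 0.0242). No iPax3 array was above background for these 2 genes, and the satellite arrays varied. Cplx4, a complexin gene of synapses, read −2.19, −2.65 and −2.9 on the iPax3 arrays and 1.97, 3.65 and 4.56 on the satellite arrays and fell by 5.97 ± 0.81 log2 units (adjusted p = 0.0205). Olfr1054, an olfactory receptor gene, read −1.28, −1.98 and −2.59 on the iPax3 arrays and 2.37, 4.39 and 4.72 on the satellite arrays and fell by 5.78 ± 0.84 log2 units (adjusted p = 0.0276). H4c4, a histone H4 gene with near-identical copies that the probe may not separate, read −0.64, −1.1 and −0.78 on the iPax3 arrays and 3.7, 5.85 and 7.08 on the satellite arrays and fell by 6.38 ± 0.98 log2 units (adjusted p = 0.0345). In Cplx4, Olfr1054 and H4c4 satellite replicate 1 was the lowest satellite array, as it was in 10 of the 16 falls. The transcripts 4933403J19Rik, AK089528, AV104666, TC1629563 and TC1603457, which carry no gene symbol, fell too. TC1603457 read −7.57, −7.33 and −5.56 on the iPax3 arrays and 0.1, 3.74 and 4.55 on the satellite arrays, a fall of at least 258-fold (adjusted p = 0.0431). TC1629563 read −7.28, −7.18 and −7.43 on the iPax3 arrays and 0.77, −0.08 and −0.02 on the satellite arrays, a fall of at least 43.2-fold (adjusted p = 0.00255). Both lay far apart between the groups. 4933403J19Rik read −7.6, −7.35 and −7.64 on the iPax3 arrays and −2.46, 2.62 and 3.81 on the satellite arrays, a fall of at least 93-fold (adjusted p = 0.0412). AV104666 read −6.49, −5.71 and −7.6 on the iPax3 arrays and −1.13, −1.12 and −1.88 on the satellite arrays, a fall of at least 14.3-fold (adjusted p = 0.0423). AK089528 read −5.68, −6.02 and −5.42 on the iPax3 arrays and −2.23, −1.75 and −1.34 on the satellite arrays, a fall of at least 10.9-fold (adjusted p = 0.0437). No iPax3 array was above background for any of these 5 transcripts. With an array left out, the calls of AK089528, AV104666, 4933403J19Rik, TC1603457 and TC1629563 held in 0, 3, 0, 2 and 6 of 9 fits. AK089528, 4933403J19Rik and TC1629563 were above background on the 3 satellite arrays alone. Without a satellite array their probes failed the filter, so for them 6 of 9 was the most that could hold.

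Of the interferon-inducible p200 genes, whose proteins bind nucleic acids in the nucleus and cytosol and which are not a fixed list, 3 were called, and they were taken from the called genes. Their probes lie near each other on mm8 chromosome 1: Ifi204 (chr1:175585969-175586028), Ifi205 (chr1:175851694-175851753) and Ifi207 (chr1:175561774-175564119), all on the minus strand. Members of this cluster are similar in sequence, so their probes are shown together; the longest run shared between any pair of them is 6 bases. Whether each probe also takes up transcripts of other members was not tested.
Ifi204: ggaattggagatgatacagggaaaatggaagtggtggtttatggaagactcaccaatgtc
Ifi205: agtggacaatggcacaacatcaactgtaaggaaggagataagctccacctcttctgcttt
Ifi207: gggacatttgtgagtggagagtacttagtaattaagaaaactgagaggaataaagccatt

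Ifi204 read 3.81, 3.72 and 4.29 on the iPax3 arrays and −1.5, −1.5 and −1.45 on the satellite arrays and rose by 5.42 ± 0.6 log2 units (adjusted p = 0.00753), with its other probes between 6.13 and 6.5. Ifi205 read 5.05, 4.4 and 5.74 on the iPax3 arrays and −0.32, −2.41 and −3.34 on the satellite arrays and rose by 7.09 ± 0.89 log2 units (adjusted p = 0.0137). Ifi207 read 2.09, 1.69 and 2.82 on the iPax3 arrays and −6.17, −3.97 and −3.9 on the satellite arrays and rose by 6.88 ± 0.84 log2 units (adjusted p = 0.0122; above background on 2 satellite arrays). Every iPax3 array was above every satellite array in each, and the satellite arrays of Ifi204 were nearly equal. The Schlafen pseudogene Slfn10-ps, of a family with close copies that the probe may not separate, rose by 7.11 ± 1.12 log2 units (adjusted p = 0.0387; above background on 1 satellite array). Of the 26 tested members of the fixed interferon response list 0 were called in limma (0 or 1 with an array left out), 5 had an unadjusted p under 0.05, and the median was 1. Isg15, a ubiquitin-like gene of that response, read 4.08, 2.07 and 4.85 on the iPax3 arrays and 1.26, 0 and 0.51 on the satellite arrays (adjusted p = 0.225). Iigp1, a GTPase gene, read −0.29, −0.51 and 1.17 on the iPax3 arrays and −1.65, −4.87 and −3.85 on the satellite arrays (adjusted p = 0.177). In both genes the groups lay apart.

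Complement and chemokine genes showed 1 call between them. C1s1, which encodes a protease of the first complement complex, read 3.59, 4.64 and 5.57 on the iPax3 arrays and −4.66, −3.23 and −2.16 on the satellite arrays and rose by 7.95 ± 0.93 log2 units (adjusted p = 0.0111), the only call among 22 complement genes. Cxcl10 read 1.09, 0.08 and 1.86 on the iPax3 arrays and −2.87, −6.27 and −6.73 on the satellite arrays (adjusted p = 0.0502). Ccl11 read 2.09, 1.26 and 2.85 on the iPax3 arrays and −2.37, −6.36 and −6.84 on the satellite arrays (adjusted p = 0.0568). These 2 chemokine genes, attractants of T cells and of eosinophils, were above background on 1 satellite array, read highest there on satellite replicate 1 and did not pass. Without satellite replicate 1, 3 of the 29 tested cytokine and chemokine genes were called. Their median was 0.75 with 0 called in limma and 4 unadjusted p-values under 0.05, and 16 genes of MHC class I presentation a median of 0.29 with 0 called and 2 such p-values.

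Further called rises belonged to no fixed list, and no count of related genes stands behind them. Cyp1b1, a cytochrome P450 gene, read −0.64, 1.76 and 1.68 on the iPax3 arrays and −8.77, −6.25 and −6.72 on the satellite arrays, a rise of at least 69.3-fold (adjusted p = 0.0104). Nox4, an NADPH oxidase gene, read 1.17, 1.15 and 1.51 on the iPax3 arrays and −3.53, −4.82 and −4.04 on the satellite arrays and rose by 5.4 ± 0.69 log2 units (adjusted p = 0.0155; above background on 2 satellite arrays). Ptgs2, which encodes the inducible cyclooxygenase of prostaglandin synthesis, read 1.01, −2.74 and 0.05 on the iPax3 arrays and −8.13, −6.27 and −6.78 on the satellite arrays, a rise of at least 24.6-fold (adjusted p = 0.0412). In Cyp1b1 and Ptgs2 no satellite array was above background, and in Ptgs2 iPax3 replicate 2 was nearer to them than the other iPax3 arrays. Naalad2, a peptidase gene, rose at least 55.6-fold (adjusted p = 0.038), Steap3, a metalloreductase gene, at least 72.2-fold (adjusted p = 0.0182), and Chit1, a chitinase gene, by 3.71 ± 0.61 log2 units (adjusted p = 0.0431). The second probe of Steap3 differed by 1.19 and that of Ptgs2 by 1.89. Slc8a1, the sodium-calcium exchanger, rose by 6.01 ± 0.88 log2 units (adjusted p = 0.0288; above background on 2 satellite arrays), with 4 other probes between −0.79 and 3.54. Atp8b1, a lipid flippase gene, rose by 7.02 ± 1.06 log2 units (adjusted p = 0.0313; above background on 1 satellite array). Chit1 had the smallest called rise, and its call held in 1 of 9 fits with an array left out.

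Other called rises outside the lists are given singly, several with probes that disagree. Rer1, which encodes a receptor that returns proteins to the endoplasmic reticulum, read 2.2, 1.48 and 1.28 on the iPax3 arrays and −5.72, −6.14 and −6.6 on the satellite arrays and rose by 7.81 ± 0.72 log2 units (adjusted p = 0.00343; above background on 1 satellite array), called in 9 of 9 fits with an array left out. Svil, the gene of the actin- and myosin-binding protein supervillin, read 1.57, 2.59 and 2.25 on the iPax3 arrays and −2.84, −2.3 and −3.98 on the satellite arrays and rose by 5.18 ± 0.74 log2 units (adjusted p = 0.0265). Nucb2, a calcium-binding protein gene, rose by 7.06 ± 1.15 log2 units (adjusted p = 0.0429; above background on 1 satellite array), and Rab28, a small GTPase gene, by 5.16 ± 0.86 log2 units (adjusted p = 0.0465; above background on 2 satellite arrays). Psd3, an exchange factor for Arf GTPases, rose by 6.47 ± 0.87 log2 units (adjusted p = 0.0192; above background on 1 satellite array), with 4 other probes between −1.63 and 3.32. Tbc1d9b, a Rab-regulating gene, rose by 5.53 ± 0.94 log2 units (adjusted p = 0.0484; above background on 2 satellite arrays), with its other probes between 0.23 and 2.25. The adaptor gene Shc4 rose by 4.31 ± 0.66 log2 units (adjusted p = 0.0326), although its other 2 probes differed by −1.76 and −0.27. Vat1l rose by 4.27 ± 0.71 log2 units (adjusted p = 0.0458; above background on 1 satellite array), while its second probe differed by −0.04. Of the 45 called genes with more than 1 probe kept, 38 had all probes on the same side. Gpr174, a G protein-coupled receptor gene best known from lymphocytes, rose at least 17.6-fold (adjusted p = 0.0409). Tcra, named by the array for the T cell receptor alpha locus with its many similar segments, read 2.47, −0.68 and 1.92 on the iPax3 arrays and −6.67, −6.41 and −6.94 on the satellite arrays and rose by 7.91 ± 1.09 log2 units (adjusted p = 0.0212; above background on 1 satellite array). A second Tcra probe differed by 0.01.

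Transcripts without a gene symbol were among the largest rises. AK090125 read 6.07, 5.9 and 6.71 on the iPax3 arrays and −3.04, −3.78 and −1.98 on the satellite arrays and rose by 9.16 ± 0.72 log2 units (adjusted p = 0.00203), and NAP120816-001 read 6.83, 6.29 and 7.26 on the iPax3 arrays and 0.28, −1.73 and −0.99 on the satellite arrays and rose by 7.61 ± 0.72 log2 units (adjusted p = 0.00403). With Dcn and Pdgfra these were the 4 genes called under all 12 other alternatives, and they were called whichever array was left out. BC023105 read 1.32, 1.04 and 2.74 on the iPax3 arrays and −8.71, −6.27 and −6.73 on the satellite arrays, a rise of at least 118-fold (adjusted p = 0.00628). TC1637468 read 2.85, 4.41 and 2.88 on the iPax3 arrays and −1.34, −6.26 and −6.3 on the satellite arrays and rose by 8.01 ± 1.32 log2 units (adjusted p = 0.0437; above background on 1 satellite array), satellite replicate 1 standing above the other satellite arrays. TC1591095 read −0.4, 0.71 and 1.7 on the iPax3 arrays and −8.72, −6.27 and −6.72 on the satellite arrays, a rise of at least 57.6-fold (adjusted p = 0.0122). AK035727, AK081699, AK089315, AK020422, AK042441, 9430012M22Rik, LOC433772, ENSMUST00000043741 and ENSMUST00000078779 rose as well. The probe of ENSMUST00000078779 (mm8 chr17:81353196-81353255, minus strand) overlaps that of Slc8a1 (chr17:81353188-81353247, minus strand). Their calls therefore count the same stretch of the genome more than once. AK035727 rose at least 83.7-fold (adjusted p = 0.0122) and AK042441 at least 9.34-fold (adjusted p = 0.0288).

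Of 16 tested genes of the insulin-like growth factor axis 13 had a higher mean, 0 passed in limma (2 without satellite replicate 1) and 6 had an unadjusted p under 0.05, with a median of 0.84. Igf2, the imprinted fetal growth factor, read 6.04, 5.86 and 6.49 on the iPax3 arrays and 2.64, −6.24 and −6.73 on the satellite arrays (adjusted p = 0.107), with satellite replicate 1 alone high and above background among the satellite arrays. Igfbp4 read 5.45, 4.27 and 5 on the iPax3 arrays and 2.11, 1.32 and 0.32 on the satellite arrays (adjusted p = 0.107). Igfbp6, like Igfbp4 the gene of a binding protein of these factors, read 3.71, 1.83 and 4.92 on the iPax3 arrays and 0.09, −0.72 and −0.39 on the satellite arrays (adjusted p = 0.126). In all 3 genes the iPax3 arrays lay above the satellite arrays. Dlk1, an imprinted gene of the Notch ligand family, read 0.84, 1.22 and 3.53 on the iPax3 arrays and −3.11, −1.22 and −2.85 on the satellite arrays (adjusted p = 0.153). Imprinted genes had a median of 0.59 over 29, with Dcn their only call.

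Among 28 Notch pathway genes 0 passed in limma and 6 had an unadjusted p under 0.05, where 12.4% of all genes did. Heyl, a target gene of Notch, read 0.35, 1.46 and 0.99 on the iPax3 arrays and 4.8, 3.89 and 3.08 on the satellite arrays (adjusted p = 0.134). Dll4, a ligand gene, read 3.83, 3.92 and 3.33 on the iPax3 arrays and 1.15, 2.07 and 1.2 on the satellite arrays (adjusted p = 0.207). Heyl was thus lower and Dll4 higher on every iPax3 array. Of 23 FGF pathway genes, 18 of the TGF-beta axis and 13 of the Hedgehog pathway 0 passed, with 4, 2 and 1 unadjusted p-values under 0.05, near the share of all genes. Fgf1, a growth factor gene, read −0.22, 1.34 and 1.79 on the iPax3 arrays and −4.76, −4.42 and −2.08 on the satellite arrays (adjusted p = 0.0937). Tgfbr2, a TGF-beta receptor gene, differed by 3.4 ± 0.85 log2 units (adjusted p = 0.149). Gli3, a Hedgehog-regulated transcription factor gene, read 3.2, 0.17 and 1.42 on the iPax3 arrays and −1.66, −6.22 and −6.67 on the satellite arrays (adjusted p = 0.0985), above background on 1 satellite array.

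The lists of body position and cell state held no call besides Sim2 and H4c4. The 33 tested Hox genes had 22 lower means, 9 unadjusted p-values under 0.05 (12.4% of all genes) and a median of −0.87, with 0 called in limma. Hoxb2 read −0.34, −0.38 and −0.27 on the iPax3 arrays and −4.84, −3.77 and −3.35 on the satellite arrays (adjusted p = 0.0774). Hoxc12 read −4.08, −5.37 and −4.92 on the iPax3 arrays and −1.11, −0.82 and 1.12 on the satellite arrays (adjusted p = 0.137). These 2 Hox genes lay apart in opposite directions. Cell cycle genes had a median of −0.73 over 28, CDK inhibitors and pocket proteins −0.15 over 16 and immediate early genes 0.45 over 22, with 1, 4 and 0 unadjusted p-values under 0.05. Ribosomal protein genes had 37 of 43 lower means, 7 such p-values, near the share of all genes, and a median of −1.01, with Rpl11 at −0.14, 0.35 and 0.58 on the iPax3 arrays and 1.79, 3.89 and 5.21 on the satellite arrays (adjusted p = 0.189). Heat shock and unfolded protein response genes had a median of −0.58 over 18 and 2 such p-values. Hspa1a, an inducible chaperone gene, read 2.56, 2.48 and 3.67 on the iPax3 arrays and 6.69, 5.49 and 6.66 on the satellite arrays (adjusted p = 0.124), lower on every iPax3 array. Respiratory chain, glycolysis and cholesterol synthesis genes had medians of −0.34, −0.14 and −0.2, with 3, 6 and 2 such p-values. Slc2a1, the glucose transporter GLUT1, read −0.2, −0.78 and 0.41 on the iPax3 arrays and −5.9, −6.23 and −5.2 on the satellite arrays (adjusted p = 0.115). Over all 54 lists, 32 had no called member, and 35 of the 98 called genes belonged to a list.

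**Figure D4:**
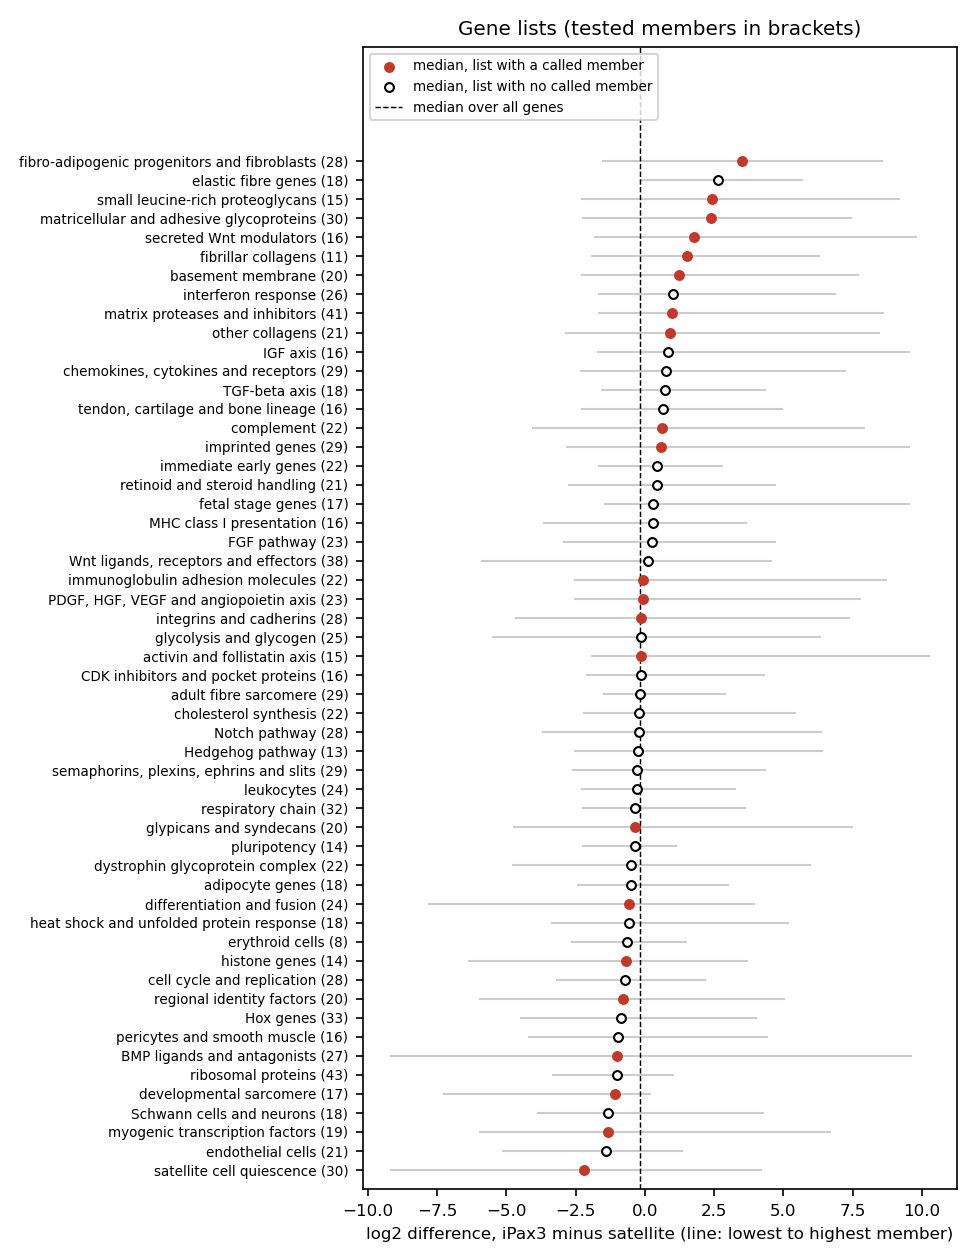
Median log2 difference, iPax3 minus satellite, of the tested members of each of 54 gene lists (points; filled where a member was called), with the lowest and the highest member as a line and the median of all genes, −0.19, dashed. Fibro-adipogenic markers lie at the top, at 3.5, followed by elastic fibre genes at 2.63, small leucine-rich proteoglycans at 2.44 and matricellular genes at 2.38, and quiescence markers at the bottom, at −2.18; lists share genes.

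Against the iPax7 cells, 0 of 22700 genes (0.0%) were called in limma, and 930 (4.1%) had an unadjusted p under 0.05. The comparisons of iPax3 and of iPax7 with satellite cells share the satellite arrays. The iPax7 arrays were scanned on the same day as the iPax3 arrays, and iPax7 replicate 1 lay on the iPax3 slide. Strain and scan day thus set both lines apart from the satellite cells. A difference that the lines share cannot be told apart from these. Among the 98 genes called against satellite cells, 16 had an unadjusted p under 0.05 between the lines, all higher in iPax3. They were called on the same iPax3 arrays, so this direction is partly fixed by the choice of genes. Ift88, which encodes a protein of intraflagellar transport needed to build cilia, had the smallest p of the 16. Its probe, shown for that reason, spans mm8 chr14:56471159-56471463 (plus strand).
Ift88: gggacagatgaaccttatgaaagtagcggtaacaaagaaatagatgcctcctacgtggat

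Ift88 read 0.2, −0.9 and 0.24 on the iPax3, −4.53, −6.09 and −5.58 on the iPax7 and −6.63, −6.09 and −5.86 on the satellite arrays. It rose at least 31.8-fold (adjusted p = 0.0111) over satellite cells, and the adjusted p of its difference from iPax7 cells was 0.239. P2ry1, a receptor gene for ADP, read 0.26, −1.68 and −1.28 on the iPax3, −6.43, −6.73 and −6.66 on the iPax7 and −7.13, −6.37 and −5.22 on the satellite arrays. Its rise over satellite cells was at least 19.4-fold (adjusted p = 0.0299), and its second probe differed by −1.37. Without iPax3 replicate 1 or 2 the called P2ry1 probe was above background on fewer than 3 arrays and dropped out. Another P2ry1 probe took its place, and the difference was −0.04 and −1.13. Clec11a, which encodes a secreted lectin that acts as a growth factor in bone, read 0.61, −0.77 and 0.38 on the iPax3, −4.99, −6.75 and −5.76 on the iPax7 and −4.11, −6.28 and −5.45 on the satellite arrays and rose by 5.35 ± 0.84 log2 units (adjusted p = 0.0379; above background on 1 satellite array). In these 3 genes the iPax7 arrays overlapped the satellite arrays, and the iPax3 arrays lay above both. No iPax7 array was above background for any of the 3, and no satellite array for Ift88 and P2ry1, so the overlap is one of dim readings.

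Ptprk, a receptor tyrosine phosphatase gene, read 1.52, 3.94 and 3.71 on the iPax3, −3.09, −2.17 and −4.26 on the iPax7 and −3.54, −5.92 and −4.11 on the satellite arrays, and rose by 7.58 ± 0.99 log2 units (adjusted p = 0.0167; above background on 2 satellite arrays). The other 3 probes of Ptprk differed by between −2.58 and −1.75, the opposite sign. Fam43a read −0.97, −1.08 and −2.6 on the iPax3, −6.37, −6.67 and −6.38 on the iPax7 and −8.94, −6.23 and −6.77 on the satellite arrays, a rise of at least 12.4-fold (adjusted p = 0.032). The unnamed transcripts TC1728254 and MGC7817 rose at least 7.92-fold (adjusted p = 0.0437) and at least 30.6-fold (adjusted p = 0.0387) over satellite cells, with iPax7 readings of −6.42, −6.68 and −7.59 for the first and of −6.37, −5.02 and −7.64 for MGC7817. Fam43a, TC1728254 and MGC7817 were above background on no iPax7 and no satellite array.

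Tns3, the gene of tensin 3 at focal adhesions, rose by 4.55 ± 0.76 log2 units (adjusted p = 0.0466), and its iPax7 arrays read −1.86, −1.91 and 0.06. Among the matrix genes described above, Mmp16 read −6.38, −1.45 and −5.12 on the iPax7 arrays, above background on 2 of them (adjusted p = 0.808 between the lines). Tnc read 0.67, 0.03 and 0.11 on the iPax7 arrays and differed by 3.12 ± 0.79 log2 units between the lines (adjusted p = 0.829). Both lay between the other groups by mean. Kazald1 read −2.8, 1.78 and −0.16 on the iPax7 arrays, and Icam1 read −1.56, 0.92 and 1.96 there. Cilp, Bmp5, Col15a1 and Col8a1 differed by 2.03 ± 0.75, 2.01 ± 0.76, 1.78 ± 0.67 and 2.07 ± 0.87 log2 units between the lines, and none of these differences passed. Dcn read 8.37, 7.19 and 7.36 on the iPax7 arrays, overlapping its iPax3 arrays. Chrdl2 read −4.08, −3.94 and −4.07 there, within the range of its iPax3 arrays. The median level of the fibro-adipogenic markers was 4.15, 2.95 and 3.21 on the iPax7 arrays, and that of the quiescence markers 0.55, −0.56 and −0.17. Both lay on the same side of the satellite arrays as on the iPax3 arrays.

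Tmem203, which encodes a transmembrane protein, had the opposite order and was named after its values were seen, because it was the 1 gene called between the lines under 3 alternatives (mean of the probes, quantile normalisation and slide as a random block). It read −7.61, −7.34 and −7.62 on the iPax3, 3.97, 0.3 and 1.33 on the iPax7 and −6.93, −6.27 and −6.84 on the satellite arrays. The adjusted p between the lines was 0.0659 in the main setting, and that against satellite cells 0.719.

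**Figure D5:**
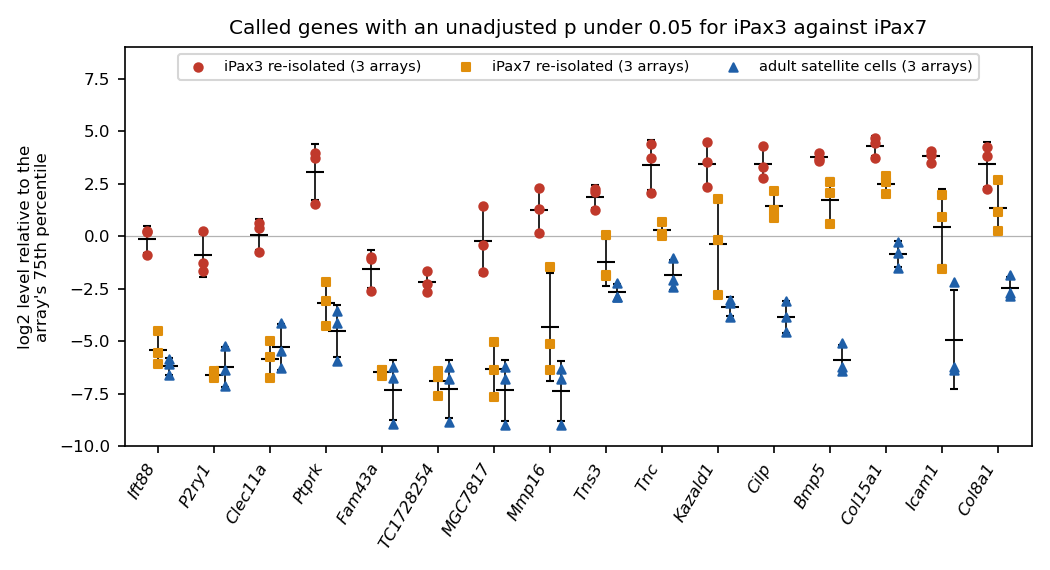
Log2 level on each array (relative to its 75th percentile) of the 16 called genes with an unadjusted p under 0.05 between the lines, with iPax3 arrays as red circles, iPax7 arrays as orange squares, satellite arrays as blue triangles and the mean and SD of each group of 3 in black. For Ift88 the iPax7 arrays lie at −6.09 to −4.53, near the satellite arrays at −6.63 to −5.86. For Cilp, Bmp5, Col15a1 and Col8a1 the mean of the iPax7 arrays lies nearer to the iPax3 mean than to the satellite mean.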

How the data were processed

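Re-isolated cells (3 iPax3 and 3 iPax7 samples) and 3 satellite cell samples were measured on Agilent single-colour mouse arrays. Per the file headers, the deposited intensity was made with Agilent Feature Extraction 10.5.1.1, which subtracted background, detrended the spots and set low values to a surrogate. The authors' deposited table of log2 values covers 31918 spots. The submitters' processing notes name limma, with no version, and the normalisation of the table is not given in the sources used here. The table was used as an alternative. Flags of the scanner software (unit other) were read per the file headers.

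The log2 intensity of each spot was set relative to the 75th percentile of its array. Control spots and outlier flags were left out, and no spot was saturated. A probe was kept if well above background on at least 3 of 9 arrays, with at most 2 values missing and at least 2 values per group. A gene took the probe with the highest mean, which can differ between settings. Group means over all 9 arrays were fitted with limma 3.58.1 in R 4.3.3 (lmFit, eBayes), with Benjamini-Hochberg adjustment over 22700 genes and a threshold of 0.05. The pipeline was tested on simulated data. Errors given after ± are the fit's standard errors. "At least" folds compare the mean of the brighter group with, per array of the dimmer group, the higher of the lowest signal among probes well above background and the probe's own signal.

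Of 41174 probes, 24490 were named through RefSeq accessions, 6234 by current symbol and 2391 by an older symbol (RefSeq table of GRCm38.p6), and 8059 kept the name of the array's design. Probe sequences and positions (build mm8) are those of the array files. Values on every array were given for the 20 largest rises, the falls, called members of the fixed lists, fixed names such as Pax7 and Pdgfra, and up to 3 uncalled members of the signalling, matrix, adhesion, patterning and state lists with the smallest p. Other genes given with values, among them members of the cell type, satellite and immune lists and Tmem203, were chosen after their values were seen. Some called genes are not reported here. The comparison, its gene lists and the tests were chosen with earlier results of these data known. The number of arrays limits the precision. Alternatives changed background correction, scaling, filter, probe rule, variance model, blocks, the samples fitted and the source of the values, and each array was left out in turn. With an array left out, the filter of at least 3 arrays above background was applied again to the arrays that remained.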

Additional observations from a re-analysis of the deposited data

How the results depend on the processing

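The comparison of iPax3 with satellite cells called 98 genes, and between 19 and 455 with an array left out. It called 56 with the 6 arrays alone, 186 in the deposited value table and 59 with median scaling. With a random block it called 27 for the scan day and 14 for the slide. The remaining alternatives called between 79 and 120, apart from the replicate block given below. With the mean of each group subtracted from every gene, same-numbered iPax3 and satellite arrays correlated at r between −0.08 and 0.02. Differently numbered arrays did so at r between −0.05 and 0.09. These values showed no pairing by replicate number, which so few arrays cannot exclude. The replicate block called 37. Leaving out iPax3 replicate 1, 2 or 3 gave 25, 27 and 19, satellite replicate 1, 2 or 3 gave 455, 28 and 35, and iPax7 replicate 3 gave 57. The comparison of iPax3 with iPax7 called 0 with any array left out, 1 with the mean of the probes, 1 with quantile normalisation, 1 with the slide as a random block and 0 under the other alternatives. The cause of these changes was not tested.

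Signs reversed for genes whose chosen probe changed: P2ry1 (−0.04 without iPax3 replicate 1 and −1.13 without iPax3 replicate 2, up to 5.85 with another array left out) and Ptprk (−1.91 with probes above background on all 9 arrays). Among uncalled genes, Myog was at 1.85 without satellite replicate 3 and ran down to −1.88, and Dpt was at −0.04 with median scaling and −0.23 without satellite replicate 2, 1 at most. Pecam1 was at 0.01 with normexp, 0.66 without iPax3 replicate 2 and 0.39 without satellite replicate 1, down to −0.64. Ptprc was at −0.41 in the deposited table, −0.43 with the mean of the probes, −0.27 with median scaling, −0.34 with normexp, −0.46 with quantile normalisation, −0.77 with the slide as a random block and −0.65 without satellite replicate 1, up to 0.9. Over the 162 genes recomputed, 2292 values kept direction and side of the threshold, 861 lost the threshold, 110 passed it anew and 16 reversed. Of 1134 list medians 1110 moved by less than the spread between arrays. Probes near background limit the dim side of a difference, so 25 rises and 9 falls have lower bounds.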
